A study of Mus musculus with 15 samples.

Results

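Whole hearts of 5 untreated diabetic mice were compared with hearts of 5 non-diabetic control mice, gene by gene. The 10 hearts were chosen by their sample titles from a series of 15, whose other 5 came from diabetic mice given rosiglitazone. The untreated diabetic mice were homozygous for the db mutation of the leptin receptor (C57BL/KLS-leprdb/leprdb, *db/db*), and the controls carried 1 mutant and 1 normal copy (C57BL/KLS-leprdb/lepr+, *db/+*), so the mutation was present in both groups. The mice ate normal chow, and RNA was taken from whole hearts of both groups after the 4 months over which the other diabetic mice were treated. Age and sex are not given in the sources used here. Each heart had its own 2-colour array, on which Cy5-labelled heart RNA competed with a Cy3-labelled mouse reference RNA. All levels below, apart from lower limits of a fold, are log2 ratios of heart to reference. Since a probe's ratio depends on how much of its transcript the reference holds, levels were compared between hearts and not between genes.

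Homozygous *db/db* mice lack a working long form of the leptin receptor, overeat, and become obese, insulin resistant and hyperglycaemic. The heart normally draws most of its energy from long-chain fatty acids, which are taken up from lipoproteins and albumin, activated to acyl-CoA, carried into mitochondria as carnitine esters and shortened by beta-oxidation. Many of these steps are under the control of PPAR alpha, a nuclear receptor that fatty acids activate, and diabetic hearts are known for relying on fat more and on glucose less.

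The arrays lay on 4 slides that were not balanced over the groups. Slide 1 held *db/+* replicates 1 to 4, slide 2 held *db/+* replicate 5 with untreated replicates 1 to 3, and slide 3 held untreated replicates 4 and 5 with 2 treated hearts. Of 27593 probes above background, 2057 (7.45%) had an adjusted p under 0.05 in limma, of which 1161 (4.21%) were higher and 896 (3.25%) lower in *db/db* hearts, a split of 56.4% higher. With another background correction (normexp with loess) the count was 2779, with 68.9% higher. With slide as a block in the same model, 37 probes (0.134%) and 27 genes (0.141%) passed. Slide and genotype can be told apart only through slide 2, so the difference within slide 2 (3 untreated hearts minus 1 *db/+* heart, without a test) and the adjusted p with slide as a block are given for the genes whose values are listed heart by heart. Of 95 genes named by rule, 6 passed when slide was a block. After normexp and loess 63 of the 95 kept their call, 25 lost it at the same sign and 7 turned sign, and the value is given beside those that are described in full. Counted with the brightest probe of each gene, 1482 of 19129 genes passed (7.75%), 793 of them higher (4.15%) and 689 lower (3.60%), and the median log2 difference over all genes was 0.00. All 10 ventricular cardiomyocyte markers, among them Myh6, Tnnt2 and Ryr2, were above background on all 10 arrays, and none passed the test. Their mean log2 ratio was 3.24 in *db/+* replicate 2 against 6.08 to 7.80 in the other *db/+* hearts. All 4 probes for Xist were above background on all 10 arrays, and probes for the Y-linked Eif2s3y and Uty were on none. Of the other Y-linked genes, 1 of 2 Ddx3y probes was above background on 2 arrays of each group, and the Kdm5d probe on 2 untreated *db/db* arrays.

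A part of the genes of fatty acid use rose in *db/db* hearts, and none fell. Of 20 mitochondrial beta-oxidation genes tested, 7 passed as higher and none as lower, against 4.15% higher over all genes, and the median difference over the 20 was 0.50 against 0.00. Of 21 PPAR alpha target genes of the heart, 8 passed as higher and none as lower, with a median of 0.55. Of 15 genes of fatty acid uptake and activation, 4 passed as higher, with a median of 0.09.

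Acot1, a cytosolic thioesterase that splits long-chain acyl-CoA and a well-known PPAR alpha target, had log2 ratios of -0.17, 0.60, -0.15, 0.05 and 0.49 in the *db/+* hearts. In the untreated *db/db* hearts the ratios were 3.29, 3.61, 2.03, 1.55 and 2.87. Every *db/db* heart lay above every *db/+* heart, and the log2 difference was 2.50 ± 0.34 (SE), or 5.67-fold (adjusted p = 9.812e-04). The difference within slide 2 was 2.48, and the adjusted p with slide as a block was 0.217. Its mitochondrial neighbour in the family, Acot2, was 2.53-fold higher (log2 difference 1.34 ± 0.18, adjusted p = 9.892e-04). Angptl4, a secreted inhibitor of lipoprotein lipase, lay between -3.20 and -2.56 in *db/+* hearts and at -2.20, 1.76, 0.09, -0.66 and 1.24 in the *db/db* hearts. Untreated replicate 1 was thus close to the controls and the others far above them, with a difference of 2.86 ± 0.57 (7.24-fold, adjusted p = 0.011, within slide 2 3.08, with slide as a block adjusted p = 0.528). Pex11a, which acts in peroxisome division, had the smallest p of the PPAR alpha targets. It lay between 1.08 and 1.28 in *db/+* hearts and between 1.79 and 2.15 in *db/db* hearts, so the groups did not overlap (0.81 ± 0.09, 1.75-fold, adjusted p = 2.587e-04, with slide as a block 0.064).

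The remaining called genes spanned the route from the membrane to the mitochondrial matrix. Slc27a1, a fatty acid transport protein, was 1.72-fold higher and Acsl1, the main acyl-CoA synthetase of the heart, 1.87-fold higher, although another of the Acsl1 probes did not pass. Slc22a5, the carnitine carrier of the plasma membrane (log2 difference 0.55), Slc25a20, which exchanges acylcarnitine over the inner membrane (0.63), and Cpt2, which returns the acyl group to CoA (0.69), were all higher. Among the dehydrogenases, Acadl rose by 0.84 and Acads by 0.52, and Etfdh, which passes their electrons to ubiquinone, by 0.67. Eci2, an isomerase for unsaturated chains, rose by 0.54. Cpt1a, the form of the entry enzyme best known from liver, rose by 0.53, while the muscle form Cpt1b differed by 0.18 ± 0.38 (adjusted p = 0.801). Mlycd, which removes the malonyl-CoA that blocks this entry, rose by 0.65. Ehhadh, a peroxisomal enzyme of beta-oxidation, rose by 0.68. Cd36 (0.32, adjusted p = 0.510), Fabp3 (-0.62, adjusted p = 0.700) and Pdk4 (0.99, adjusted p = 0.052) did not pass.

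None of these genes passed with slide as a block. Within slide 2 the median difference was 0.17 for beta-oxidation and 0.38 for the PPAR alpha targets. Without *db/+* replicate 2 the beta-oxidation median was 0.33 with 5 genes called, and without untreated replicate 2 it was 0.40 with 3 called.

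**Figure D1:**
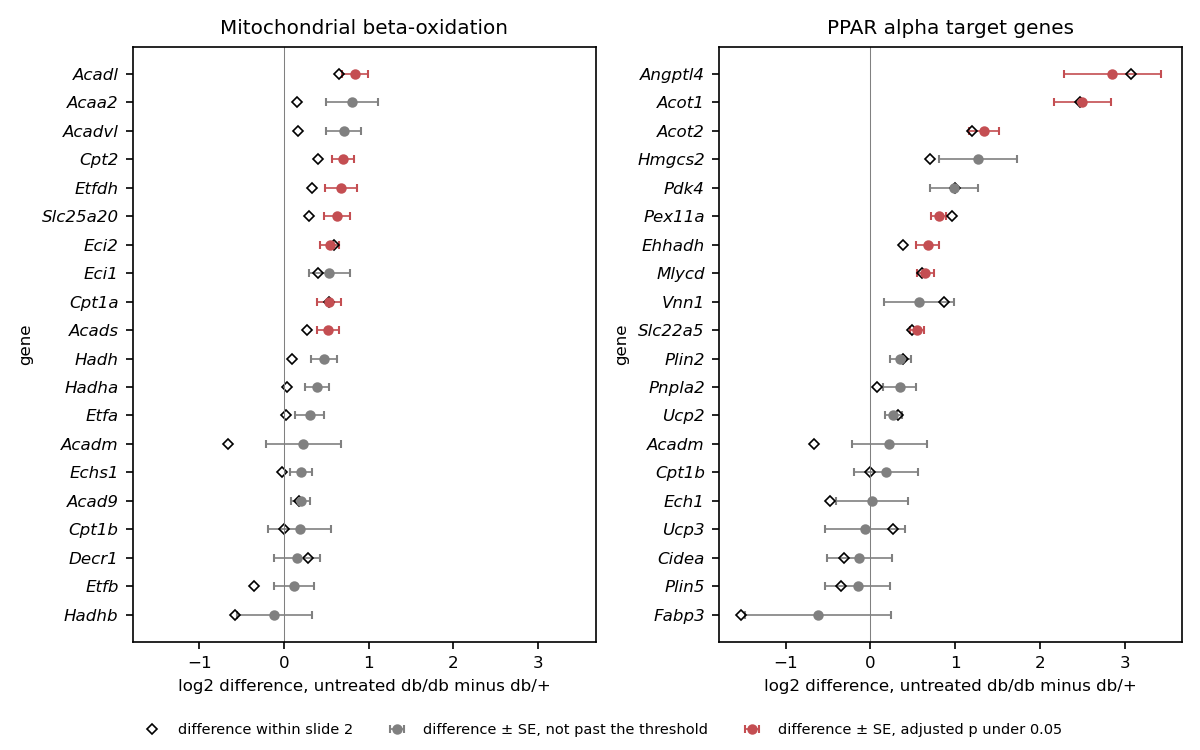
Log2 difference of untreated *db/db* minus *db/+* hearts (horizontal axis) for 20 beta-oxidation genes (left) and 20 of the PPAR alpha target genes (right), with SE bars; red points passed at an adjusted p under 0.05 and open diamonds are differences within slide 2. The called genes, 7 in each panel, all lie above 0, and most diamonds on the left lie nearer to 0 than the points.

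Of 22 genes of glucose transport and glycolysis, 1 passed as higher (4.55%, against 4.15% of all genes), Pfkfb1, an isoform of the enzyme that makes and removes fructose 2,6-bisphosphate. It lay between 0.99 and 1.80 in *db/+* hearts and between 2.01 and 2.90 in *db/db* hearts (2.08-fold, adjusted p = 0.015, within slide 2 a log2 difference of 1.25). Of 18 glycogen genes, 2 passed (11.1%). Gys1, the muscle glycogen synthase, and Pygl, the liver type of glycogen phosphorylase, were 1.71-fold and 1.53-fold higher, both with overlapping groups. Dlat, a subunit of pyruvate dehydrogenase, and Idh3a, of the citric acid cycle, were the 2 called of 28 genes (7.14%, log2 differences 0.46 and 0.51). Their differences within slide 2 were 0.02 and 0.15, and a second Dlat probe differed by 0.09 (adjusted p = 0.679). Of 11 hexosamine and polyol genes, Khk, ketohexokinase, passed as higher (0.32) and Gnpnat1, which acetylates glucosamine 6-phosphate, as lower (-0.67). Each made up 9.09% of that list, against 4.15% higher and 3.60% lower over all genes.

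Of 84 respiratory chain and ATP synthase subunits, 2 passed as higher (2.38%, against 4.15% of all genes), Cox7b2 and Cox6b2, both isoforms best known from testis (1.55-fold and 1.72-fold higher). Of 78 mitochondrial ribosomal proteins, 2 passed as higher (2.56%), Mrps11 and Mrpl28 (1.28-fold and 1.31-fold higher). The medians of these lists were 0.05 and -0.01. No gene passed among 22 genes of mitochondrial protein import, 18 of mitochondrial biogenesis and dynamics, 9 of ketone body metabolism and 22 of branched-chain amino acid catabolism. Among 28 autophagy and mitophagy genes, 1 passed as higher (3.57%). Bcl2l13, a mitophagy receptor of the outer membrane, was 1.36-fold higher, with 0.82 to 1.04 in *db/+* hearts and 1.31 to 1.42 in *db/db* hearts.

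Gatm, which makes guanidinoacetate in the first step of creatine synthesis, was the called gene that fell among 22 genes of creatine and adenine nucleotide metabolism (4.55%, against 3.60% of all genes). Its log2 ratios were -1.34, -1.61, -1.43, -1.48 and -1.69 in *db/+* hearts and -3.18, -2.92, -2.24, -2.91 and -3.33 in *db/db* hearts. The groups were separate, with a difference of -1.40 ± 0.18 (2.65-fold lower, adjusted p = 6.643e-04, within slide 2 -1.09, with slide as a block adjusted p = 0.370). Xdh, xanthine dehydrogenase, rose by 0.42 (adjusted p = 0.046), and a second probe was not called (0.48, adjusted p = 0.052). Of 16 muscle atrophy and FoxO genes, 2 passed as higher (12.5%, against 4.15% of all genes) and 1 as lower (6.25%). Among them Ddit4, an inhibitor of mTOR complex 1 that is induced by stress and glucocorticoids, was 3.09-fold higher. It lay at -2.25 to -1.28 in *db/+* hearts and at -0.91 to 0.20 in *db/db* hearts. Foxo6 was 1.69-fold lower (adjusted p = 0.030). No gene passed among 45 proteasome subunits or 20 genes of the amino acid response and serine synthesis.

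Among genes measured on all 10 arrays whose groups did not overlap, 385 were called higher and 276 lower. These counts hold only current RefSeq symbols, without Rik, Gm or LOC names and without genes described earlier. Over all genes tested, without any of these limits, 7.90% had separate groups. Hp, Rbp4, Serpina3m, Fetub and Rgn were among the 14 named for the greatest increase. Hp, haptoglobin, which binds free haemoglobin, had log2 ratios of -1.88, -2.47, -2.50, -2.50 and -2.31 in *db/+* hearts. Its ratios were -0.23, 2.74, 1.56, 0.95 and 1.24 in *db/db* hearts. All *db/db* hearts were higher, replicate 1 by the least and replicate 2 by the most (3.58 ± 0.41, 12.0-fold, adjusted p = 3.023e-04, within slide 2 3.67, with slide as a block adjusted p = 0.162). Rbp4, the plasma carrier of retinol, lay at -3.12 to -2.47 in *db/+* hearts and at -0.86, 2.77, 0.42, -2.26 and 0.51 in *db/db* hearts. Untreated replicate 4 was close to the controls and replicate 2 far above, and the difference was 2.84 ± 0.70 (7.15-fold, adjusted p = 0.028, within slide 2 3.45, with slide as a block adjusted p = 0.516). Under normexp and loess it was 1.53 (adjusted p = 0.128). Serpina3m, a serine protease inhibitor, showed the same order at its ends, from 0.48 in untreated replicate 4 to 4.96 in replicate 2, with *db/+* hearts at -0.19 to 0.40 (4.57-fold, adjusted p = 0.042). Fetub, a liver-secreted protease inhibitor of the fetuin family, was 4.54-fold higher (adjusted p = 2.145e-04), but with normexp and loess the log2 difference was 0.28 (adjusted p = 0.712). Rgn, the calcium-binding protein regucalcin, was 4.35-fold higher (adjusted p = 0.027).

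Aadac, an arylacetamide deacetylase of liver microsomes, was above background in all 5 *db/db* hearts and in no *db/+* heart. For such genes a lower limit of the fold was taken from the heart channel alone, normalized between arrays. The measured group's mean was set against the other group's mean, with signals below an array's lowest signal above background raised to it. The limit was 6.09-fold for Aadac, whose ratios overlapped between the groups (adjusted p = 0.033). F10, coagulation factor X, was 3.09-fold higher (adjusted p = 0.039), from -0.45 in untreated replicate 4 to 2.62 in replicate 2. Hpx, haemopexin, a plasma carrier of haem, rose by 3.39 ± 0.94 (adjusted p = 0.045). None of these 3 passed with normexp and loess, with log2 differences of 1.31 for Aadac (adjusted p = 0.075), 0.87 for F10 (adjusted p = 0.089) and 1.94 for Hpx (adjusted p = 0.073). The ratio difference for Aadac under that correction was thus below its limit, which is another measure, from the heart channel alone.

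Markers of hepatocytes were read beside these genes. Of the 12 markers listed, 9 were tested and 4 passed as higher (44.4%, against 4.15% of all genes). The median difference of the 9 was 2.66 (within slide 2 2.44). Some were tested only because they were above background in *db/db* hearts, so the median and list means lean to an increase. Serpina3k was above background in no *db/+* heart and Apoc3 in 1, each against 4 *db/db* hearts. Cyp3a11 was above background in 2 *db/+* hearts and Fgb, Fgg and Apoh in 3, against 4 or 5 *db/db* hearts. Only 1 of the 9, Ahsg, was above background on all 10 arrays, and it differed by 0.96 (adjusted p = 0.048). The mean log2 ratio of the 9 lay between -0.04 and 1.98 in the *db/+* hearts. It was 3.14, 5.87, 4.33, 1.52 and 4.02 in the *db/db* hearts, lowest in replicate 4 and highest in replicate 2. Rbp4, Serpina3m, Aadac and F10 had the same ends. Hp and Fetub were instead lowest in untreated replicate 1 (-0.23 and -2.54), and Rgn was highest in that heart (6.75, against 6.29 in replicate 2). Alb, albumin, was above background in 4 *db/+* and all 5 *db/db* hearts and differed by 1.94 (adjusted p = 0.227). Apoa2 rose by 2.26 (adjusted p = 0.028), with 0.98 to 2.43 in *db/+* hearts and 2.30 to 5.80 in *db/db* hearts. The part of hepatocyte RNA in the secreted protein genes was not tested, and in bulk tissue more cells of a type cannot be told apart from more RNA per cell. Without untreated replicate 2 the difference was 3.21 for Hp, 2.17 for Rbp4, 1.54 for Serpina3m and 2.60 for Aadac. Rgn was then no longer called, while leaving out untreated replicate 3 or 5, or *db/+* replicate 3 or 4, ended the calls of Rbp4, Serpina3m, Aadac and F10.

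**Figure D2:**
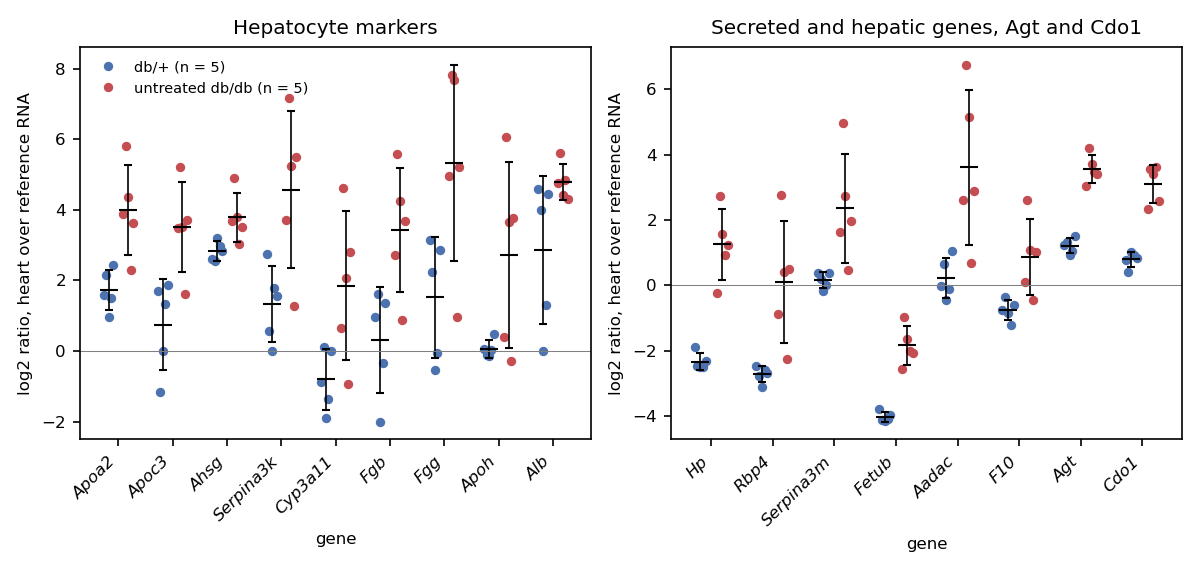
Log2 ratio of heart over reference (vertical axis) in each heart, replicates 1 to 5 from left to right within a group, with the mean and SD bars, for 9 hepatocyte markers (left) and 8 genes named in the text (right). Untreated replicate 2 is the highest of its group for most of the genes. On the right all 5 *db/db* hearts lie above every *db/+* heart for each gene but Aadac and F10.

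Agt, angiotensinogen, the precursor of the angiotensin peptides, had ratios of 1.25, 1.33, 0.94, 1.05 and 1.52 in *db/+* hearts and 3.03, 4.21, 3.72, 3.47 and 3.40 in *db/db* hearts. The groups were far apart (2.35 ± 0.18, 5.09-fold, adjusted p = 1.774e-05), the difference within slide 2 was 2.13, and the adjusted p with slide as a block was 0.055. Cdo1, cysteine dioxygenase, which commits cysteine to the synthesis of taurine and sulphate, lay at 0.42 to 1.01 and at 2.35 to 3.62 (4.94-fold, adjusted p = 2.057e-04). Slc6a13, a membrane carrier for GABA that also takes up taurine, had ratios of -0.90, -1.04, -0.95, -0.81 and -1.32 against 0.53, 1.64, 0.85, 0.67 and 0.84. Every *db/db* heart was above 0 and every *db/+* heart below it (1.91 ± 0.18, 3.76-fold, adjusted p = 5.261e-05), and the call held with slide as a block (adjusted p = 0.026, within slide 2 2.33).

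Tcf23, a basic helix-loop-helix factor, lay between -0.26 and 0.92 in *db/+* hearts and between 2.54 and 2.96 in *db/db* hearts. The spread within the *db/db* group was small beside the difference of 2.36 ± 0.18 (5.14-fold, adjusted p = 1.479e-05, with slide as a block 0.047). Klk1b26, one of the closely related glandular kallikreins, whose probes may not tell the family members apart, was 9.35-fold higher, with 0.93 to 2.10 against 4.09 to 5.40 (adjusted p = 3.204e-05, with slide as a block 0.026). Scube1, a secreted and cell surface protein of endothelium and platelets, was 4.40-fold higher at its brightest probe (adjusted p = 0.0010), and at its other probe the difference was 0.63 (adjusted p = 0.073). Clec4f, a lectin known as a marker of liver macrophages, was 3.71-fold higher (adjusted p = 0.0016), with 1.28 to 2.93 against 3.85 to 4.88.

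**Figure D3:**
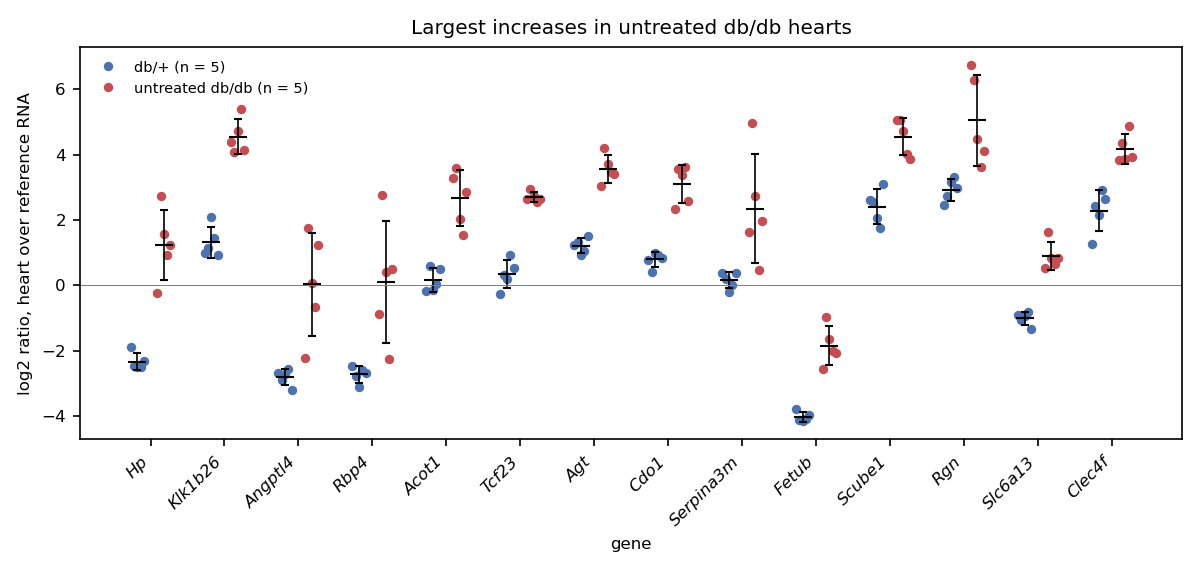
Log2 ratio of heart over reference (vertical axis) of the 14 named genes with the greatest increase, in the 5 *db/+* (blue) and 5 untreated *db/db* hearts (red), replicates from left to right, with mean and SD bars. Hp, Angptl4, Rbp4 and Serpina3m spread widely among the *db/db* hearts, while Tcf23, Agt and Slc6a13 do not.

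In all, 14 genes were above background in all 5 *db/db* hearts and in no *db/+* heart. Of these, 11 were called higher (against 4.15% of all genes), a share that choosing them by where they were measured favours. No gene showed the reverse. The share of probes above background was 56.4% to 71.6% on the *db/+* arrays and 61.4% to 75.6% on the untreated *db/db* arrays. Its part in this imbalance was not tested. Besides Aadac, those named by the same rule were Edn3, a vasoactive endothelin peptide (at least 2.92-fold higher, adjusted p = 2.145e-04), Stfa2l1, a stefin-type inhibitor of cysteine proteases (at least 2.73-fold, adjusted p = 0.018), Srd5a2, a steroid 5-alpha reductase (at least 2.08-fold, adjusted p = 0.0031), Chil4, a chitinase-like protein of myeloid and epithelial cells (at least 1.93-fold, adjusted p = 0.020) and Oacyl (at least 1.29-fold, adjusted p = 0.010). Chil4 (log2 difference 0.35, adjusted p = 0.158) and Oacyl (0.097, adjusted p = 0.329) did not pass with normexp and loess. Edn3 (0.59), Stfa2l1 (0.66) and Srd5a2 (0.49) still passed there. Under that correction the ratio difference of each of these genes was below its limit, which is taken from the heart channel alone. A second Edn3 probe, above background in 1 *db/+* and 4 *db/db* hearts, differed by 2.36 (adjusted p = 0.0039).

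The greatest decrease among the named genes measured on all arrays was that of Prnd, which encodes doppel, a relative of the prion protein. Its ratios were 7.30, 5.61, 5.59, 5.27 and 5.73 in *db/+* hearts and 3.10, 2.66, 2.75, 3.62 and 3.86 in *db/db* hearts. All *db/db* hearts were lower (-2.70 ± 0.38, 6.50-fold, adjusted p = 0.0013, within slide 2 -2.89, with slide as a block adjusted p = 0.148). The difference was -0.91 with normexp and loess, and the call was then lost (adjusted p = 0.283). Aplnr, the receptor for apelin on endothelium and cardiomyocytes, lay at 4.05 to 5.22 and at 2.55 to 3.29. It was 3.77-fold lower at its brightest probe (adjusted p = 3.023e-04, with slide as a block 0.064), but at a second probe the difference was -0.13 (adjusted p = 0.774), and with normexp and loess it was -0.80 (adjusted p = 0.309). Mycn, a transcription factor of the Myc family that is active in the growing heart, was 2.74-fold lower (adjusted p = 0.0030), also without a call at its second probe or with normexp and loess (-0.34, adjusted p = 0.663).

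Rps6kl1, a kinase-like relative of the ribosomal S6 kinases, had an even decrease. Its ratios were 2.49, 2.23, 2.24, 2.38 and 2.53 in *db/+* hearts and 0.93, 0.77, 0.69, 0.52 and 0.49 in *db/db* hearts. Each group spanned less than the gap between them, the difference was -1.69 ± 0.11 (3.23-fold lower, adjusted p = 3.712e-06), and the call held with slide as a block (adjusted p = 0.0034, within slide 2 -1.73). It was lost with normexp and loess, where the difference was -0.56 (adjusted p = 0.190). Nrep, a neuronal regeneration-related protein, lay at 1.98 to 2.58 and at 0.77 to 0.96 (2.51-fold lower, adjusted p = 5.554e-05, with slide as a block 0.066), and was not called with normexp and loess (-0.39, adjusted p = 0.314). Trim59 fell by 1.39 on the log2 scale (adjusted p = 0.0050), but by 0.65 within slide 2.

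**Figure D4:**
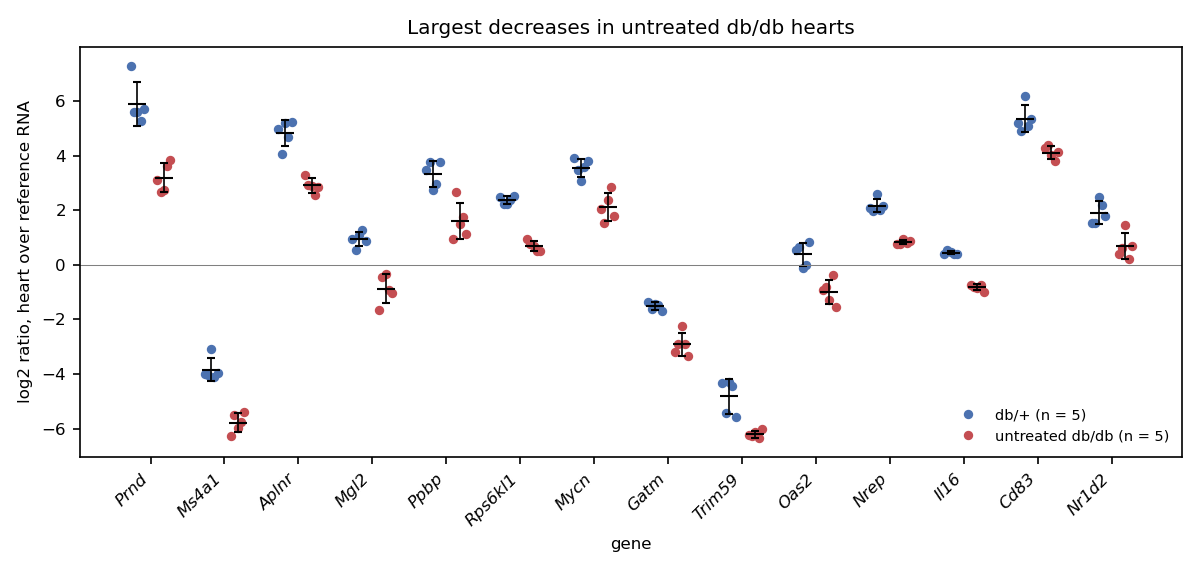
Log2 ratio of heart over reference (vertical axis) of the 14 named genes with the greatest decrease, in the 5 *db/+* (blue) and 5 untreated *db/db* hearts (red), replicates from left to right, with mean and SD bars. The groups are separate for each gene by the rule that chose them, and Rps6kl1 and Il16 vary little within a group.

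Il16, a chemoattractant for CD4+ leukocytes, lay at 0.41, 0.56, 0.46, 0.41 and 0.41 in *db/+* hearts and at -0.73, -0.81, -0.85, -0.75 and -1.0 in *db/db* hearts. The hearts of a group were nearly alike, and the difference was -1.28 ± 0.11 (2.42-fold lower, adjusted p = 3.204e-05, within slide 2 -1.20, with slide as a block adjusted p = 0.017). Ms4a1, which encodes the B cell antigen CD20, was 3.84-fold lower, with -4.11 to -3.08 against -6.26 to -5.39 (adjusted p = 2.992e-04). Of 5 B cell markers tested, 3 passed as lower (60%, against 3.60% of all genes), among them Ms4a1 and Cd79b. The mean over the 5 was -1.50 to -0.80 in *db/+* hearts and -2.22 to -1.68 in *db/db* hearts. None of 7 T cell markers and none of 14 macrophage markers passed. Mgl2, a lectin of macrophages and dendritic cells, was 3.54-fold lower (adjusted p = 0.0010), Cd83, of activated dendritic cells and lymphocytes, 2.35-fold lower (adjusted p = 0.0043, with the sign turned under normexp and loess), and Oas2, an interferon-induced antiviral enzyme, 2.60-fold lower (adjusted p = 0.0042). Ppbp, the platelet basic protein, was 3.33-fold lower (adjusted p = 0.031), with 2.74 to 3.78 against 0.96 to 2.66, and was not called with normexp and loess (-0.48, adjusted p = 0.543).

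Of 40 chemokines and chemokine receptors, 2 passed as higher (5%, against 4.15% of all genes) and 5 as lower (12.5%, against 3.60%). Cxcr4, the receptor of Cxcl12, lay at -0.30 to 0.16 in *db/+* hearts and at -1.01 to -0.43 in *db/db* hearts (1.66-fold lower, adjusted p = 0.0043), and it was called at its other probe too. Xcl1, lymphotactin, was above background on 4 *db/+* arrays and on no *db/db* array (at least 1.91-fold lower, adjusted p = 1.774e-05, with slide as a block 0.037). Cxcr5, the B cell follicle receptor, was likewise above background on 4 *db/+* arrays and no *db/db* array (at least 2.95-fold lower, adjusted p = 0.0052). Neither passed with normexp and loess, and the log2 differences were -0.12 for Xcl1 (adjusted p = 0.422) and -0.15 for Cxcr5 (adjusted p = 0.436). Both ratio differences were smaller than these limits, which are taken from the heart channel alone. Ccl24 and Ccl25 fell by 0.81 and 0.36. Cxcl13, the ligand of Cxcr5, rose by 2.71 ± 0.53 (within slide 2 4.52, with slide as a block adjusted p = 0.035), and Ccl11, eotaxin, by 1.32 ± 0.25. Cxcl13 did not pass with normexp and loess (1.94, adjusted p = 0.062).

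Of 41 interleukins and their receptors, 3 passed in each direction (7.32%, against 4.15% higher and 3.60% lower over all genes). Il1r2, the decoy receptor for interleukin 1, rose by 1.97, Il17re by 1.43 and Il4ra by 0.45, while Il13ra1 fell by 0.48 and Il27ra by 0.58 beside Il16. Of these, Il1r2 (0.21), Il4ra (0.21) and Il13ra1 (-0.056) did not pass with normexp and loess. Of 21 complement genes, C3 and C4b were higher (9.52%). C3 had 2 called probes, with differences of 1.11 and 2.30, and C4b was 2.50-fold higher, with *db/+* hearts at -0.00 to 0.82 and *db/db* hearts at 0.92 to 2.44. Of 23 coagulation genes, 2 passed as higher, among them F10, and 2 as lower (8.70% each way). Tfpi, the tissue factor pathway inhibitor (1.50-fold, adjusted p = 0.014, a difference of 0.013 with normexp and loess), and F3, tissue factor itself (log2 difference -0.39, adjusted p = 0.042), were lower. Of 30 genes of iron and haem handling, 4 were higher (13.3%). They were Hp, Hpx, Slc40a1, the iron exporter ferroportin (1.37-fold), and Alas1, the first enzyme of haem synthesis (1.95-fold). For Alas1 the log2 difference within slide 2 was only 0.23.

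The molecular clock is a loop in which Clock and Arntl activate Per, Cry and Nr1d genes through E-box elements, and the Per, Cry and Nr1d proteins repress in turn. Of 18 clock genes, 2 passed as higher and 2 as lower (11.1% each way, against 4.15% and 3.60% of all genes). Cry1 had ratios of -1.01, -0.90, -1.07, -0.98 and -0.90 in *db/+* hearts and 0.36, -0.13, -0.42, -0.28 and 0.45 in *db/db* hearts. The *db/+* hearts were nearly level and all *db/db* hearts higher (0.97 ± 0.15, 1.96-fold, adjusted p = 0.0027, within slide 2 0.84, with slide as a block adjusted p = 0.526). Its difference with normexp and loess was 0.37 and did not pass (adjusted p = 0.086). Nfil3, a repressor of D-box genes, was 2.19-fold higher, with -1.11 to -0.43 against -0.36 to 0.86 (adjusted p = 0.0096). Nr1d2, the nuclear receptor REV-ERB beta, fell from 1.53, 1.54, 2.48, 2.19 and 1.81 to 0.41, 0.62, 1.47, 0.22 and 0.69, with untreated replicate 3 just under the lowest *db/+* heart (-1.23 ± 0.26, 2.34-fold lower, adjusted p = 0.013, within slide 2 -0.98, with slide as a block adjusted p = 0.702). Dbp, an activator of D-box genes, fell by 1.42 (adjusted p = 0.036). Per1 differed by 0.85 (adjusted p = 0.075), Nr1d1 by -0.84 (adjusted p = 0.090) and Per2 by 0.09 (adjusted p = 0.877). None of the 4 called genes passed with slide as a block, and the hour at which hearts were collected is not given in the sources used here.

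RefSeq promoter windows, from 250 bases before to 50 after the start of a gene in build GRCm38.p6, were matched for 10116 of the genes tested. The E-box CACGTG, which reads the same on both strands, stood in 11.0% of them, in 9.03% of the windows of genes called higher and in 9.65% of those called lower. Of 15 clock genes with a window, 5 held it (Bhlhe41, Ciart, Cry1, Per1 and Tef). The 250 bases before the start are shown for Cry1 and Prnd, with the E-box in capitals. Cry1 (chr10:85185055-85185304, minus strand) was the called clock gene with the E-box, 54 bases before the start. Prnd (chr2:131950611-131950860, plus strand) had the greatest decrease of the named genes measured on all arrays. It held the same letters 179 bases before the start.
Cry1: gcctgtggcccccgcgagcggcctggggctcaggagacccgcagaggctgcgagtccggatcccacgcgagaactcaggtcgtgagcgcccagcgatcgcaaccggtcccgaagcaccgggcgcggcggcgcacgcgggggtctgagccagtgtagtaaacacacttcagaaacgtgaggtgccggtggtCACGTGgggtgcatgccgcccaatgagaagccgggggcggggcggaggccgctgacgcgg
Prnd: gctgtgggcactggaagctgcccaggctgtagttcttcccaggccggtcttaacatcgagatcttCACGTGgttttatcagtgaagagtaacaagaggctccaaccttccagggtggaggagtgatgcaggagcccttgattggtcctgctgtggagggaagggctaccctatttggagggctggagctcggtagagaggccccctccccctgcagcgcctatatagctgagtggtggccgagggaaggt

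Among signalling genes, 3 of 19 Notch and hedgehog genes passed, all lower (15.8%, against 3.60% of all genes). Hey1, a target gene of Notch in endothelium and myocardium, lay at 1.45 to 1.80 in *db/+* hearts and at 0.95 to 1.34 in *db/db* hearts (1.39-fold, adjusted p = 0.010). Of its ligands, Dll1 fell by 0.47 on the log2 scale (adjusted p = 0.011) and Jag1 by 0.37 (adjusted p = 0.045). With normexp and loess none of the 3 passed, and the sign of Dll1 turned. Of 31 Wnt genes, 3 passed, all higher (9.68%, against 4.15% of all genes). They were the receptors Fzd5 (2.55-fold) and Fzd8 (1.73-fold) and the ligand Wnt11 (1.50-fold). A second probe was not called for either receptor, with a difference of 0.36 for Fzd5 and -0.04 for Fzd8. Of 32 genes of the FGF, PDGF and ErbB systems, 2 passed as higher (6.25%), Fgf2 and Fgf10 (log2 differences 1.30 and 0.81). Each was above background in only 2 *db/+* hearts. The sign of Fgf10 turned with normexp and loess. Of 18 sirtuins and histone deacetylases, 4 passed as higher (22.2%), Hdac3, Hdac6, Hdac11 and Sirt5, a mitochondrial desuccinylase, with differences of 0.29 to 0.74. Within slide 2 the difference was 0.75 for Hdac6, 0.47 for Hdac11, 0.23 for Sirt5 and 0.17 for Hdac3.

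Of 19 genes of the intercalated disc, 2 passed, both lower (10.5%, against 3.60% of all genes). Gja1, connexin 43, the main gap junction protein of the ventricle, had ratios of 1.96, 2.20, 2.31, 1.92 and 2.23 in *db/+* hearts and 1.59, 1.48, 1.62, 1.67 and 1.33 in *db/db* hearts. The groups were apart by -0.59 ± 0.10 (1.50-fold lower, adjusted p = 0.0043, within slide 2 -0.67, with slide as a block adjusted p = 0.332). With normexp and loess the difference was -0.35 (adjusted p = 0.071). Ctnnb1, beta-catenin, was 1.39-fold lower (adjusted p = 0.015), and 1 of its other 2 probes was called too. Of 18 genes of the sodium pump and ion exchangers, 1 passed as higher (5.56%, against 4.15% of all genes). Atp1b1, the beta subunit of the pump, was 1.38-fold higher (adjusted p = 0.049). Of 24 genes of nitric oxide, cGMP and phosphodiesterases, 1 passed (4.17%), Pde7a, which was 1.37-fold higher (adjusted p = 0.044). Its second probe was not called (0.49, adjusted p = 0.078). Of 15 sodium, calcium and pacemaker channels and of 25 sarcomere genes none passed. The sarcomere median was -0.33, and it was 0.04 without *db/+* replicate 3 and -0.80 without *db/+* replicate 2.

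Of 32 integrins and laminins, 1 passed as higher (3.125%, against 4.15% of all genes) and 2 as lower (6.25%, against 3.60%). Lama5, a laminin chain of basement membranes, was 2.15-fold higher (-0.42 to 0.97 against 1.23 to 1.79, adjusted p = 0.015). Itgb6, the epithelial partner in the integrin that activates TGF-beta, was 2.11-fold lower, and Itga8, of smooth muscle and fibroblasts, 1.80-fold lower, both with the sign turned under normexp and loess. A second Itgb6 probe was not called (-0.75, adjusted p = 0.177). Of 37 proteoglycans and matricellular proteins, 2 passed as higher (5.41%) and 1 as lower (2.70%). The surface proteoglycans Gpc4 and Sdc1 were 1.38-fold and 1.34-fold higher and Sdc3 1.27-fold lower, and the sign of Sdc1 turned under normexp and loess. A second Sdc3 probe differed by -0.01 (adjusted p = 0.976). No gene passed among 25 immediate early genes, 17 hypoxia-inducible genes and 15 genes of the insulin-like growth factor system, with medians of 0.09, 0.09 and 0.08.

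**Figure D5:**
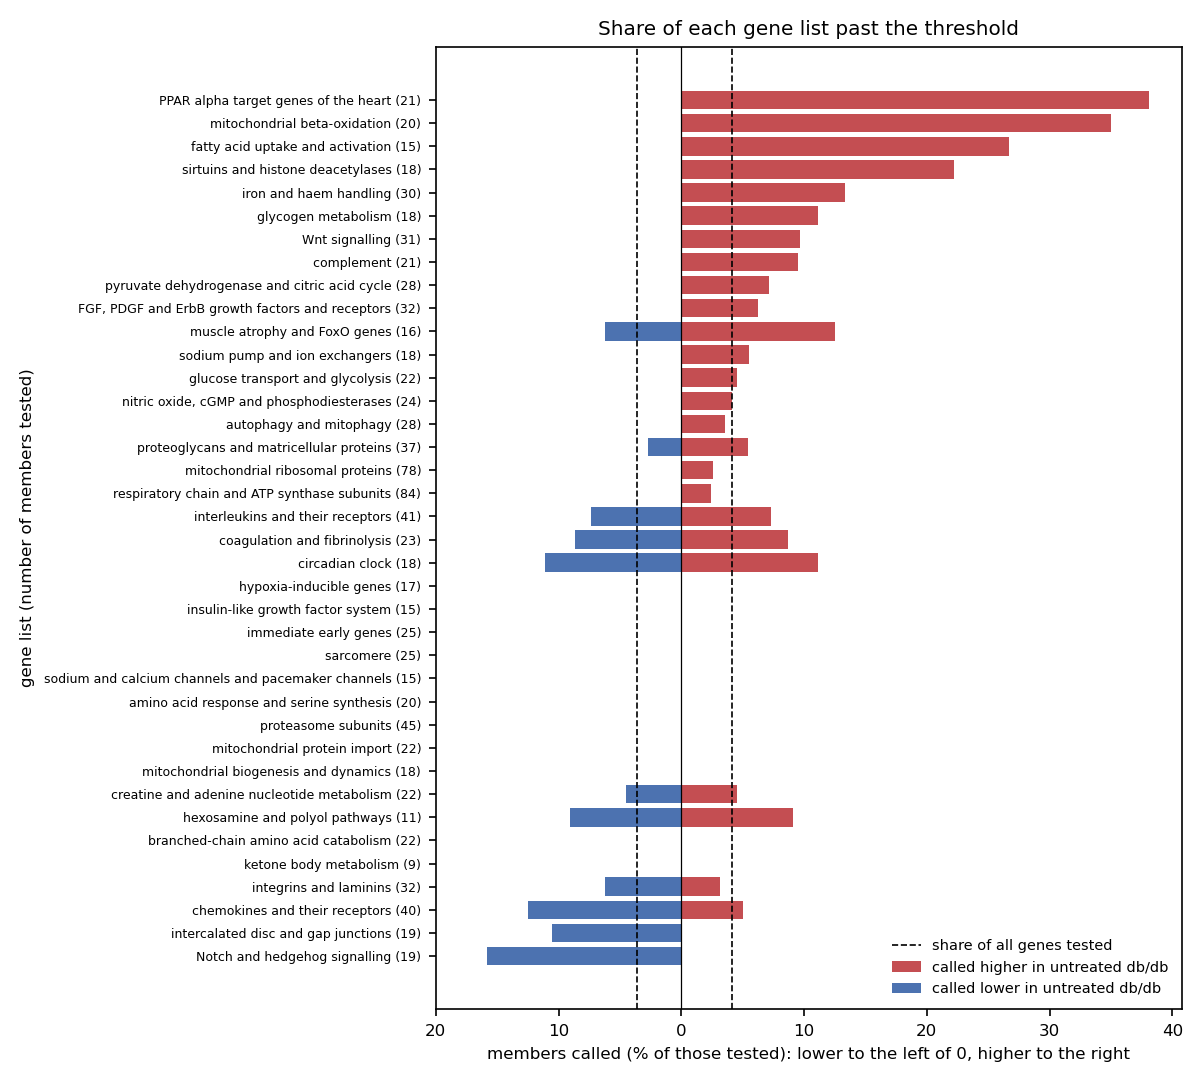
Share of the tested members of each of 38 gene lists (number tested in parentheses) that passed as higher (red, to the right of 0) or lower (blue, to the left) in untreated *db/db* hearts, in percent, with dashed lines at the shares over all genes tested (4.15% and 3.60%). The PPAR alpha, beta-oxidation and fatty acid uptake lists reach furthest right and the Notch list furthest left, while 11 lists have no called member.

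Of 7 fat cell markers tested, 2 passed as higher and 2 as lower (28.6% each way, against 4.15% and 3.60% of all genes). Plin4 and Lipe, of lipid droplets and lipolysis, were higher by 1.05 and 0.88. Cfd, the secreted protease adipsin, fell by 3.55 (adjusted p = 9.145e-04) and Adipoq, adiponectin, by 2.39 (adjusted p = 0.011), while Plin1, Fabp4 and Cidec did not pass. Neither decrease passed with normexp and loess, at -1.01 for Cfd (adjusted p = 0.088) and -0.31 for Adipoq (adjusted p = 0.117). Of 10 skeletal muscle markers, Mylpf was lower, and of 4 markers of the exocrine pancreas, Cela1 was higher. None of 9 endothelial, 8 fibroblast, 6 smooth muscle, 5 erythroid and 5 neutrophil markers passed.

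Because the groups differ by design at the leptin receptor locus on chromosome 4, the 15 nearest tested genes on each side of Lepr were read as a group. Of the 30, 4 passed (2 lower and 2 higher), against 7.75% of all genes. On the side before Lepr, Jak1, the cytokine receptor kinase, fell by 0.40 and Efcab7 by 0.59, and 11 of the 15 differences were negative, with a median of -0.18. On the side after it, Oma1, a mitochondrial inner membrane protease, rose by 0.39 and Pars2, the mitochondrial prolyl-tRNA synthetase, by 0.40, and 4 of 15 were negative, with a median of 0.19. A second Jak1 probe was not called (-0.48, adjusted p = 0.082), and no gene of the 30 passed with slide as a block. Jak1 (-0.27, adjusted p = 0.073), Efcab7 (-1.02, adjusted p = 0.057) and Oma1 (0.93, adjusted p = 0.0502) did not pass with normexp and loess.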

How the data were processed

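Hearts of 5 *db/+* and 5 untreated *db/db* mice, with 5 treated *db/db* hearts that entered the model for the spread only, were measured on 2-colour arrays with 45018 spots. Per the file headers, the authors read the intensity of heart (Cy5) and reference (Cy3) with Agilent Feature Extraction, version 9.5.1.1, with background subtraction and LOWESS between dyes. The log10 ratio that the authors deposited was turned to log2, and the 43379 spots that are not controls were averaged per probe. The deposited value table of the series, once turned from log10 to log2, holds the same ratios.

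A probe was tested where its heart signal was well above background on at least 4 of 5 arrays of a group. Treated replicates 3 and 4, nearly identical, were averaged. The 3 groups were fitted with limma 3.58.1 in R 4.3.3 (11 residual degrees of freedom, Benjamini-Hochberg over the probes tested), and SE are from that model. A gene was read at its brightest probe and named by its accession through RefSeq (18572 probes) or else by the file's name. Well above background on each array was 56.4% to 75.6% of probes; the number of arrays limits the precision. The labels do not say more of the mice than group and number. The test's p-values weigh each difference against a spread estimated within the 3 groups, treated hearts included, and moderated over probes. They do not separate slide from genotype.

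The members and the 38 gene lists and 18 marker lists were chosen with earlier results of these data known. Genes are named by rule: the 14 greatest changes each way among called genes measured on all 10 arrays with separate groups, the 6 greatest limits each way, up to 3 called members of a list by p, and called neighbours of Lepr, leaving out genes described earlier. Other list members were named after their values were seen. The model was tested on simulated data. Alternatives covered background correction, scaling, filters, slide, pairing, the samples in the model and outlier-flagged spots (chosen after seeing the data). Data handling used data.table, version 1.17.8, and figures Python 3.11.15 and matplotlib 3.10.9. Single genes withheld from this account are counted in their lists but not reported here by name.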

Additional observations from a re-analysis of the deposited data

Results flagged for a closer look

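Each of the 95 named genes was checked for a heart that lies far from the other 4 of its group, by the gap to its nearest neighbour over the range of the group. Of 190 groups, 11 had such a heart, and chance gives about 1 in 20. Among the *db/+* hearts, replicate 1 was high for Prnd (log2 ratio 7.30 against 5.27 to 5.73) and low for Pde7a (0.49 against 0.82 to 0.90). Replicate 3 was high for Ms4a1 (-3.08 against -4.11 to -3.97) and low for Xdh (-0.036 against 0.22 to 0.32) and for Stfa2l1 (0.00 against 1.11 to 1.49), a probe that was not above background in any *db/+* heart.

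Among the untreated *db/db* hearts, replicate 2 was high for Slc6a13 (1.64 against 0.53 to 0.85) and replicate 1 for Gpc4 (0.62 against 0.49 to 0.52). Replicate 3 was high for Wnt11 (2.0 against 1.41 to 1.54) and Itga8 (5.37 against 4.40 to 4.61). Replicate 4 was low for Slc40a1 (2.60 against 2.85 to 2.93) and high for Xcl1 (0.74 against 0.00 to 0.14), which was not above background in any *db/db* heart.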

How the results depend on the processing

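The count of called probes (2057) and of called genes (1482) was lowest with slide as a fixed block (37 probes, 21 higher and 16 lower, 27 genes). It fell to 894 probes (505 higher, 389 lower, 657 genes) with only the 2 groups compared in the model, and to 1297 (731 higher, 566 lower, 926 genes) when *db/+* replicate 3 and untreated replicate 2 were both left out. With the replicate number as a block it was 209 (129 higher, 80 lower, 168 genes). Correlations of same-numbered hearts were between -0.25 and 0.04. Since same-numbered hearts lay on different slides, these values cannot tell whether the numbers pair the mice. With normexp and loess 1915 probes were higher. Leaving out 1 heart gave 1139 to 2628 probes (632 to 1395 higher, 475 to 1233 lower, 835 to 1891 genes), lowest without *db/+* replicate 4. Scaling between arrays gave 1540 probes, no filter 1696, a filter on all 10 arrays 2185, treated replicates 3 and 4 taken separately 2489, and spots flagged as outliers left out 2145. The cause of these shifts was not tested, except that the 2 group model has fewer samples for the spread.

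Of 95 named genes, 60 kept their call without each single heart, and 6 kept it with slide as a block (Klk1b26, Tcf23, Slc6a13, Rps6kl1, Xcl1 and Il16). The 35 that lost it at least once included Rbp4, Serpina3m, Rgn, Ppbp, Aadac, Chil4, Dlat, Idh3a, Gys1, Pygl, Gnpnat1, Khk, Xdh, Cox7b2, Cox6b2, Mrps11, Mrpl28, Foxo6, Atp1b1, Pde7a, Jag1, Fgf10, Fgf2, Hdac6, Sirt5, Hdac3, Slc40a1, F10, Itga8, Sdc3, Jak1, Efcab7, Oma1 and Pars2. Of 32 further called list members and markers, 16 lost it at least once (among them Slc27a4, Slc25a20, Acads, Cpt1a, Etfdh, Dbp, Hdac11, Hpx, F3, Ccl25, Il27ra, Apoa2, Apoc3, Ahsg and Serpina3k). With normexp and loess 32 of the 95 lost their call. Of these, 25 kept their sign, among them Rbp4, Fetub, Prnd, Aplnr, Ppbp, Rps6kl1, Mycn, Trim59, Nrep, Aadac, Chil4, Oacyl, Gja1, Hey1, Jag1, Fgf2, Cry1, F10, Xcl1, Cxcr5, Il13ra1, Jak1, Efcab7 and Oma1, and 7 turned sign, Cd83 (0.12), Dll1 (0.13), Fgf10 (-0.67), Tfpi (0.013), Itgb6 (0.12), Itga8 (0.40) and Sdc1 (-0.30), as did Cela1 (-0.092). Of the 32 further genes, 12 lost it there. Within slide 2, whose hearts also entered the calls, none of the 95 turned sign, and 26 moved by more than the spread between hearts.

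Signal over background limited the genes named by a lower bound, and only 1 *db/+* heart shared a slide with untreated *db/db* hearts.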
